A study of Mus musculus with 10 samples.

Results

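Voltage-gated and pacemaker ion channel genes were taken as all genes whose symbol belongs to the sodium (Scn), calcium (Cacna, Cacnb, Cacng), potassium (Kcn) or pacemaker (Hcn) channel families and that had a probe set carrying that symbol alone, which gave 117 of the 18193 genes on the arrays. Where a gene had several probe sets, the one with the highest mean over the 10 arrays stood for it. Of the 117 genes, 22 had a 10-array mean log2 signal above 6, and all of these stayed above 6 on every array. Kcnj8, at 6.79, was the lowest of these, and Scn2b, at 5.80, was the highest of the other 95.

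The hearts came from female mouse embryos at 13.5 days post coitum. Hccs het KO hearts were heterozygous, with 1 copy of Hccs knocked out conditionally in the heart, and control hearts came from littermates. Hccs is the X-linked gene of holocytochrome c synthase, which attaches haem to mitochondrial cytochromes, so random X inactivation leaves a heterozygous heart with a mixture of deficient and healthy muscle cells. The submitters' design text says that healthy cardiomyocytes hyperproliferated at this stage while deficient cells still made up much of the tissue. Each genotype had 5 arrays and each array held RNA from 4 to 5 pooled whole hearts, so p-values measure the spread between pools. The promoter that drives the heart-conditional deletion and the alleles carried by the controls are not given in the sources used here.

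Ion channels of these families set the electrical cycle of a heart muscle cell. Sodium channels give the fast upstroke in working muscle, L-type and T-type calcium channels carry calcium inward for contraction and for pacing in young hearts, and potassium channels repolarise the cell and hold its resting potential. Hyperpolarisation-activated Hcn channels carry the pacemaker current, and auxiliary subunits decide how many pore-forming subunits reach the membrane and how fast they open and close.

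Hccs, measured first as a check of the labels, had log2 signals of 10.81, 10.73, 10.90, 10.57 and 10.39 in Hccs het KO hearts, against 11.11, 11.31, 11.28, 11.20 and 11.25 in control hearts. The means were 10.68 ± 0.20 in Hccs het KO hearts and 11.23 ± 0.08 in control hearts (SD, n = 5 each), the groups did not overlap, and the signal fell by 31.7% (exact permutation p = 0.00794, two-sided, the smallest that 5 against 5 arrays allow). All 9 cardiomyocyte markers had means above 6, and the 9 Y-linked probe sets had means of 1.95 to 3.72 in these female hearts. The cardiomyocyte marker signals, summed on the linear scale, were 322172 to 364800 in Hccs het KO hearts and 375259 to 405982 in control hearts. The signal of the 18S ribosomal RNA control probe set lay between 7.84 and 8.57 in Hccs het KO hearts and between 8.06 and 11.4 in control hearts. Control replicate 3, at 8.06, was the only control array within the Hccs het KO range, and the other controls lay at 9.88 or higher. The 18S signal thus largely went with genotype. Fits below with it as a covariate separate the 2 poorly and lean on control replicate 3.

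Control replicate 3 stood apart in most of the neural transcripts listed. The summed signal of 11 peripheral neuron markers ran between 822 and 1030 in Hccs het KO hearts and between 776 and 2865 in control hearts. Control replicate 3 held the highest values of Prph (7.12), Tubb3 (8.02), Stmn2 (9.58), Elavl4 (7.30), Gap43, Snap25, Isl1 and Th. The others peaked elsewhere: Phox2a in control replicate 2 (4.04), Dbh in control replicate 1 (5.90) and Elavl3 in Hccs het KO replicate 2 (2.76). The 4 measured markers of Schwann and neural crest glia summed to between 303 and 378 in Hccs het KO hearts and to between 334 and 1478 in control hearts, with Fabp7 at 10.15 in control replicate 3. Values without that array are given for Cacna2d1, Cacna1c, Cacna1h, Scn9a, Kcnmb2 and Scn3b. For the lists of genes that work beside the channels, only counts of called genes without it are given. Single genes of those lists and the cell type markers are shown with all arrays only. Control replicate 3 held the highest Nedd4l, Fgf13 and Myh7 values and the lowest Tcf21 value.

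Of the 117 channel genes 1, Cacna2d1, fell in Hccs het KO hearts and none rose (limma, Benjamini-Hochberg adjusted p under 0.05 over all 18193 genes). Across all genes 2.58% changed in either direction and 0.945% fell, and among the genes with a mean above 6 the shares were 4.53% and 1.74%, so 1 of 22 channel genes is near the background. Cacna2d1 was also the only channel gene whose Hccs het KO and control arrays did not overlap, against 5.79% of all genes and 8.26% of those with a mean above 6. Before adjustment, 3 of the 22 channel genes (Cacna2d1, Kcnk3 and Kcnn2) had a limma p below 0.05, against 28.9% of genes with a mean above 6, and so did 5 of the 95 dimmer channel genes, against 11.4% of genes with a mean of 6 or below.

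Most of the 22 genes had a lower mean in Hccs het KO hearts without passing the test. The log2 change, Hccs het KO minus control, was negative for 16 of them and positive for 6, a negative share of 72.7% against 47.5% of the 9596 genes with a mean above 6. Their median change was -0.14, against 0.011 for those 9596 genes. The 22 channel genes also varied more between arrays of a genotype: the median within-genotype SD was 0.247 (range 0.140 to 0.415), against 0.147 for all genes with a mean above 6. Of the 21 that did not pass, 19 had a 95% interval that included 0, all 21 intervals lay within 1 log2 unit either way, 13 lay within 0.5, and 7 reached below -0.5.

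**Figure D1:**
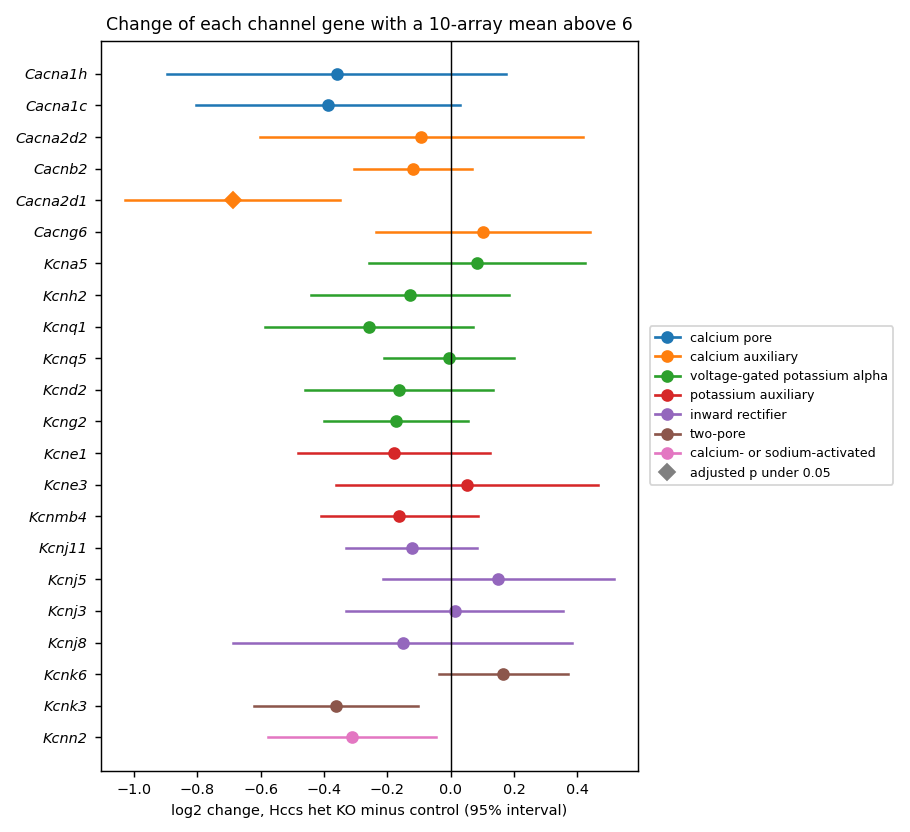
Log2 change (Hccs het KO minus control, x axis) of the 22 channel genes with a 10-array mean above 6, one row per gene, coloured by role. Points are limma estimates and bars 95% intervals over 5 arrays a genotype; Cacna2d1, the diamond, is the 1 gene past the adjusted threshold, and 16 of the 22 points lie left of 0.

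The calcium channel group held the called gene. Cacna2d1 encodes the alpha2delta subunit of voltage-gated calcium channels, an extracellular auxiliary protein that brings the pore to the membrane and accompanies the cardiac L-type channel. Its log2 signal was 8.69, 8.84, 8.36, 8.60 and 8.71 in Hccs het KO hearts, against 9.45, 9.29, 9.77, 9.24 and 8.89 in control hearts. Every Hccs het KO array lay below every control array, the nearest pair being Hccs het KO replicate 2 and control replicate 5. The mean was 8.64 ± 0.18 in Hccs het KO hearts and 9.33 ± 0.32 in control hearts (SD, n = 5 each), so that the signal fell by 38.0%. On the log2 scale the change was -0.69, with a standard error of 0.15 and a 95% interval of -1.03 to -0.35 (adjusted p = 0.0477). In whole hearts, fewer cells of a type and less RNA per cell cannot be told apart.

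A different probe set of Cacna2d1 did not show this fall. With a mean of 8.60, it read 8.98, 9.02, 8.95, 8.79 and 7.52 in Hccs het KO hearts, against 8.51, 8.87, 8.52, 8.15 and 8.72 in control hearts. Of the Hccs het KO arrays, 4 lay at the upper end of the control range or above it and replicate 5 lay below all controls, and the log2 change was 0.10 (standard error 0.29). The other 3 Cacna2d1 probe sets had means of 4.55, 2.72 and 2.09 and changes between -0.05 and 0.11. When all 34945 single-gene probe sets were tested, the brightest Cacna2d1 probe set had an adjusted p of 0.0562 and no channel probe set passed. Without control replicate 3 the Cacna2d1 change was -0.58 (limma adjusted p = 0.078), and with the 18S signal as a covariate it was -1.16 (limma adjusted p = 0.00992). The fit with the covariate carries the limit on the 18S signal given above, and control replicate 3 also held the highest Cacna2d1 value. Leaving out any of Hccs het KO replicates 2 to 5 or of control replicates 1 to 4 ended the call. The part of the lower cardiomyocyte marker sum in this result was not tested.

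**Figure D2:**
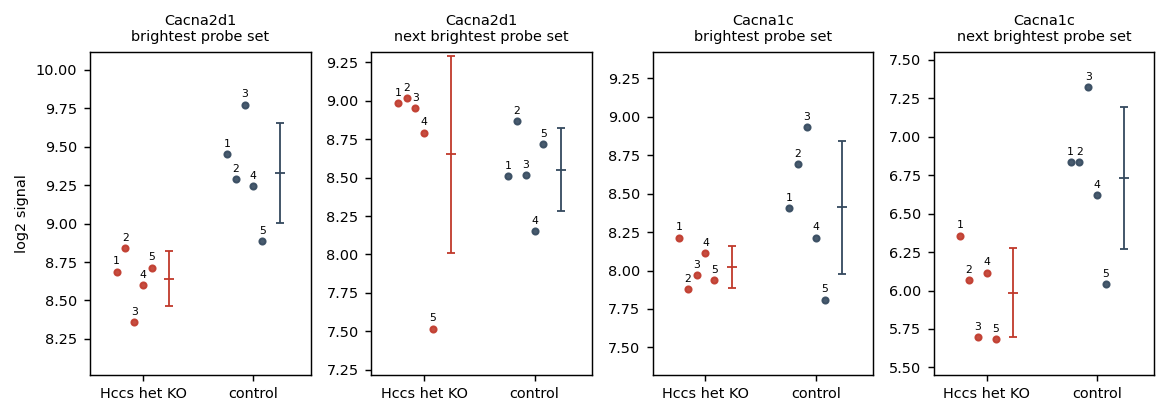
Log2 signal (y axis) of the brightest and the next brightest probe set of Cacna2d1 and of Cacna1c in Hccs het KO and control hearts; numbers are replicates, and bars give mean ± SD over 5 arrays. The brightest Cacna2d1 probe set separates the genotypes and the next does not (log2 change 0.10), while both Cacna1c probe sets have lower Hccs het KO means with overlapping arrays.

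Cacna1c encodes the pore of the L-type channel, the main route of calcium entry in heart muscle. It read 8.21, 7.88, 7.97, 8.11 and 7.94 in Hccs het KO hearts, against 8.41, 8.69, 8.93, 8.21 and 7.81 in control hearts. The Hccs het KO arrays lay close together in the lower part of the control range, which spread over more than 1 log2 unit. The log2 change of -0.39 (95% interval -0.80 to 0.03) did not pass (adjusted p = 0.270), and it was -0.26 without control replicate 3 and -0.85 with the 18S signal as a covariate (limma adjusted p = 0.0763). The next brightest probe set of Cacna1c had 6.36, 6.07, 5.70, 6.12 and 5.68 in Hccs het KO hearts, against 6.84, 6.84, 7.32, 6.62 and 6.04 in control hearts, a change of -0.75 that did not pass over all probe sets (limma adjusted p = 0.120). Control replicate 5 held the lowest control value of both Cacna1c probe sets and of the brightest Cacna2d1 probe set, and control replicate 3 the highest.

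Cacna1h, the pore of a T-type channel that opens at negative voltages, had 8.65, 8.34, 8.06, 8.53 and 8.96 in Hccs het KO hearts and 8.67, 9.08, 9.61, 8.55 and 8.44 in control hearts. Control replicate 3 exceeded every other array by 0.53, and the change of -0.36 (95% interval -0.90 to 0.17) did not pass (limma adjusted p = 0.416). It was -0.18 without that array, -0.0633 without replicate 3 of either genotype, and -0.95 with the 18S signal as a covariate (limma adjusted p = 0.112). Cacnb2, the cytoplasmic beta subunit of the cardiac L-type channel, averaged 9.14 ± 0.15 in Hccs het KO hearts and 9.26 ± 0.13 in control hearts (SD, n = 5 each), and its next brightest probe set averaged 8.28 ± 0.15 in Hccs het KO hearts and 8.27 ± 0.29 in control hearts. Cacna2d2, a second alpha2delta subunit, averaged 9.59 ± 0.45 in Hccs het KO hearts and 9.69 ± 0.33 in control hearts, with Hccs het KO replicates 1 and 2 at opposite ends of the whole range, 10.16 and 8.98. Cacng6, a gamma subunit, averaged 7.03 ± 0.33 in Hccs het KO hearts and 6.92 ± 0.16 in control hearts. Of the 18 other measured calcium channel genes none had a mean above 6. Among them Cacna1d, the L-type pore of pacemaker tissue, averaged 5.09 ± 0.22 in Hccs het KO hearts and 5.41 ± 0.16 in control hearts (change -0.32, limma adjusted p = 0.156). Cacna1g, another T-type pore, averaged 4.43 ± 0.31 in Hccs het KO hearts and 4.82 ± 0.24 in control hearts (change -0.39, limma adjusted p = 0.209).

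The transcript of Nkx2-5, the homeodomain factor of heart muscle, fell by 0.78 on the log2 scale in Hccs het KO hearts. It read 10.68, 10.50, 10.20, 10.28 and 10.31 there, against 11.02, 11.23, 11.15, 11.15 and 11.31 in control hearts (limma adjusted p = 0.0108), with no overlap. The labels do not name the driver of the heart-conditional deletion or say whether it alters an Nkx2-5 allele, so an effect of the driver and of the loss of Hccs on this transcript cannot be told apart. Promoter windows from 250 bases before to 50 bases after a start site, taken from RefSeq on GRCm38.p6, were searched on both strands for the letters TNAAGTG, which resemble the NKX2-5 site. Windows were found for 89 of the 117 channel genes and for 14 of the 22 with a mean above 6, which had 19 windows. The letters stood in 2 of these 19 windows and in 11.5% of all 32851 windows. The letters AGATAA of a GATA site stood in 0 of the 19 and 11.2% of all windows, and TATAAA in 0 and 13.6%. The first sequence below is the window of Cacna2d1, the called gene, at chr5:15934441-15934740 on the plus strand, with no match and 80% G or C. The second is 1 of the windows of Cacnb2, at chr2:14823842-14824141 on the plus strand, with 2 matches that start 170 and 40 bases before the start site, and the third is that of Kcnj8, at chr6:142571565-142571864 on the minus strand, with 1 match on the opposite strand 120 bases before the start site. All are written 5′ to 3′ along the gene, capitals mark the matched letters, and no matches overlap.
Cacna2d1: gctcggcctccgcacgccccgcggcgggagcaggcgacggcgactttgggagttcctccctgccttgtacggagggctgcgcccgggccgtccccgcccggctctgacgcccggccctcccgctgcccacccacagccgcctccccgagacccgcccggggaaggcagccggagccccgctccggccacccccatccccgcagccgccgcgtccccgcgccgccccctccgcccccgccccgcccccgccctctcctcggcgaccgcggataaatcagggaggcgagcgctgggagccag
Cacnb2: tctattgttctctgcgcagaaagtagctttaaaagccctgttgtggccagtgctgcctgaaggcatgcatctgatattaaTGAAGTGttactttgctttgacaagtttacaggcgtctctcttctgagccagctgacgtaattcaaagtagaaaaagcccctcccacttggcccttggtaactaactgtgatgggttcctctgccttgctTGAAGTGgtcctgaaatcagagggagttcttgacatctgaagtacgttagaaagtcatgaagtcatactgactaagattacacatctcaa
Kcnj8: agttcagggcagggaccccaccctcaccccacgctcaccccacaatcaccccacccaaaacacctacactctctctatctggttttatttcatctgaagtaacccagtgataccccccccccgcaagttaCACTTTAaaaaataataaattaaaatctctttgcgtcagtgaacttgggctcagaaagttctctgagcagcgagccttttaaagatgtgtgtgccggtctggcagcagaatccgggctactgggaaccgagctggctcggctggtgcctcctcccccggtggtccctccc
The log2 changes of the 2 genes with a match were -0.12 for Cacnb2 and -0.15 for Kcnj8, neither past the threshold. A match of letters is a description and shows neither binding nor its absence.

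**Figure D3:**
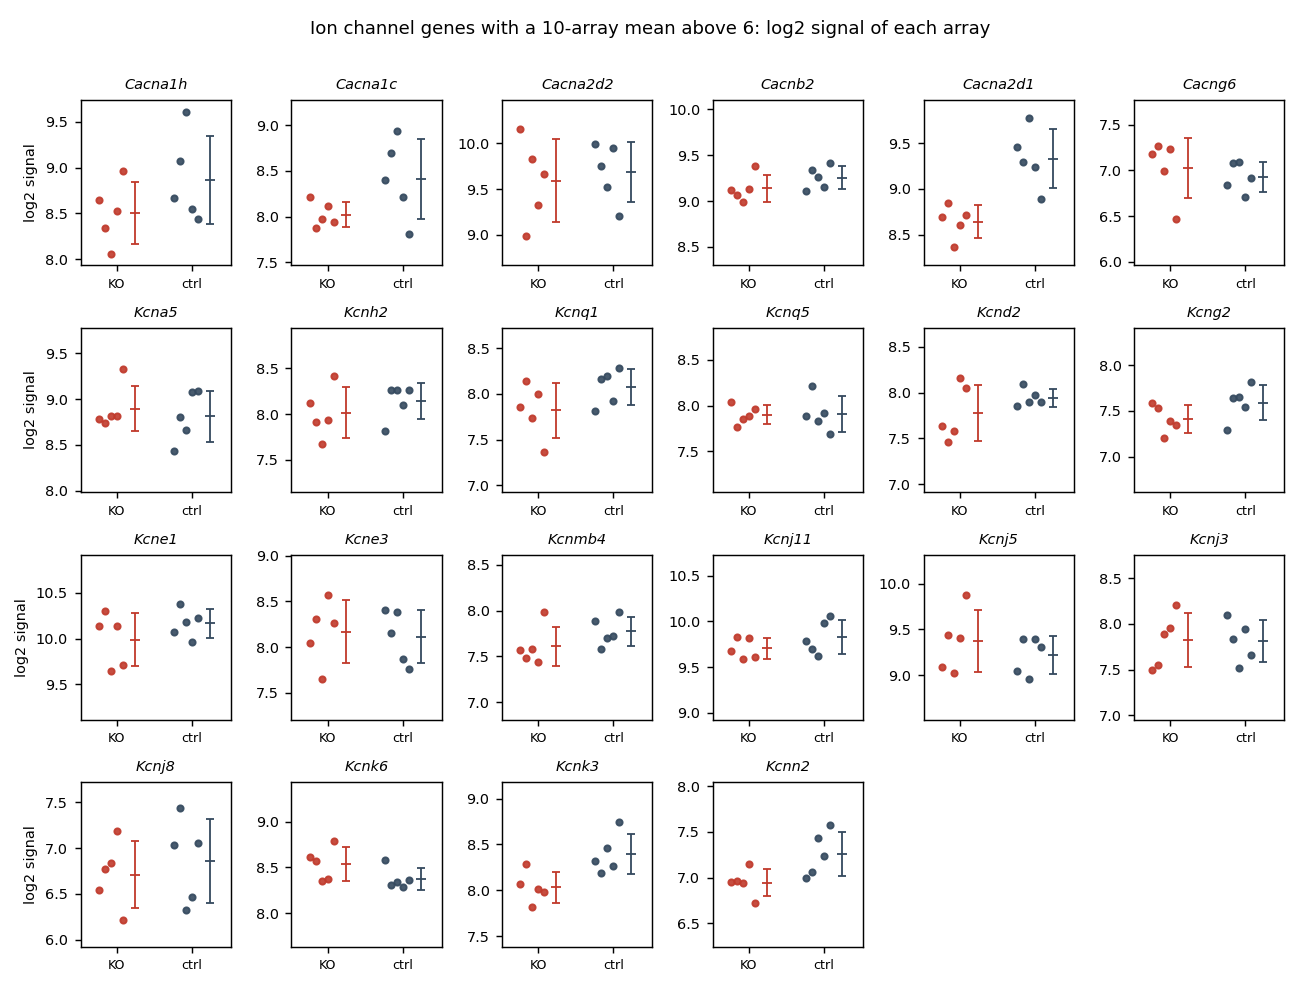
Log2 signal (y axis, each panel with its own range) of the 22 channel genes with a 10-array mean above 6 in Hccs het KO (KO, left) and control (ctrl, right) hearts. Points are arrays in order of replicate number and bars give mean ± SD over 5 arrays; Cacna2d1 is the only panel in which the genotypes do not overlap.

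Voltage-gated potassium channel pores made the largest group, with 31 genes of which 6 had a mean above 6, and none passed the test. Kcna5, the ultrarapid delayed rectifier, read 8.78, 8.74, 8.82, 8.81 and 9.33 in Hccs het KO hearts, against 8.43, 8.80, 8.66, 9.08 and 9.09 in control hearts. Hccs het KO replicate 5 stood above the other 4, which lay within 0.1 of each other, and the change was 0.08. Kcnh2, the rapid delayed rectifier pore, averaged 8.01 ± 0.28 in Hccs het KO hearts and 8.14 ± 0.19 in control hearts (SD, n = 5 each). Kcnq1, the slow delayed rectifier pore, read 7.85, 8.14, 7.73, 8.0 and 7.36 in Hccs het KO hearts, against 7.81, 8.16, 8.20, 7.93 and 8.29 in control hearts. Hccs het KO replicates 1, 2 and 4 lay inside the control range and replicates 3 and 5 below it, and the change of -0.26 (95% interval -0.59 to 0.07) did not pass (limma adjusted p = 0.348).

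Kcnd2, a pore of the transient outward current, averaged 7.78 ± 0.31 in Hccs het KO hearts and 7.94 ± 0.09 in control hearts (SD, n = 5 each). Its Hccs het KO arrays split, with replicates 4 and 5 at 8.16 and 8.05 and the other 3 between 7.46 and 7.63, below every control. Kcnd3, the other main pore of that current, had a mean below 6 and averaged 5.03 ± 0.28 in Hccs het KO hearts and 5.30 ± 0.17 in control hearts (change -0.28, limma adjusted p = 0.273). Kcng2, which does not conduct by itself and modifies other pores, averaged 7.41 ± 0.15 in Hccs het KO hearts and 7.59 ± 0.19 in control hearts. Kcnq5, a relative of Kcnq1, averaged 7.90 ± 0.10 in Hccs het KO hearts and 7.91 ± 0.19 in control hearts on its brightest probe set. A dimmer Kcnq5 probe set read 6.05, 5.63, 5.21, 3.74 and 4.77 in Hccs het KO hearts, against 6.45, 7.21, 7.43, 5.27 and 5.57 in control hearts, a change of -1.31 with overlapping arrays that did not pass over all probe sets (limma adjusted p = 0.217).

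Of the 14 auxiliary potassium channel genes 3 had a mean above 6. Kcne1, the partner of Kcnq1 in the slow delayed rectifier, averaged 9.99 ± 0.29 in Hccs het KO hearts and 10.17 ± 0.16 in control hearts (SD, n = 5 each), with changes of -0.18 and -0.15 on its 2 probe sets. Hccs het KO replicates 3 and 5 had the lowest Kcne1 values, 9.65 and 9.72. Kcne3, a subunit of the same family, averaged 8.17 ± 0.34 in Hccs het KO hearts and 8.12 ± 0.29 in control hearts, and Kcnmb4, a beta subunit of large-conductance calcium-activated channels, averaged 7.61 ± 0.21 in Hccs het KO hearts and 7.77 ± 0.16 in control hearts. Kcnip2, the cytoplasmic partner of the transient outward pores in adult heart, was among the dim genes at 2.84 ± 0.05 in Hccs het KO hearts and 2.73 ± 0.10 in control hearts.

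The inward rectifiers included both acetylcholine-gated subunits and both pores of the ATP-sensitive channel. Kcnj5 and Kcnj3 form the acetylcholine-gated channel of atrium and pacemaker. Kcnj5 averaged 9.37 ± 0.34 in Hccs het KO hearts and 9.22 ± 0.21 in control hearts (SD, n = 5 each), and Kcnj3 averaged 7.82 ± 0.29 in Hccs het KO hearts and 7.81 ± 0.23 in control hearts. Kcnj5 read 9.09, 9.43, 9.03, 9.41 and 9.88 in Hccs het KO hearts and 9.04, 9.39, 8.95, 9.40 and 9.30 in control hearts, so that only Hccs het KO replicates 2, 4 and 5 lay above all controls, the first 2 of them by less than 0.1. Kcnj11, the ATP-sensitive pore of ventricular muscle, averaged 9.70 ± 0.11 in Hccs het KO hearts and 9.83 ± 0.19 in control hearts. Kcnj8, the ATP-sensitive pore of vascular smooth muscle and pericytes, averaged 6.71 ± 0.36 in Hccs het KO hearts and 6.86 ± 0.46 in control hearts. Kcnj2 and Kcnj12, pores of the classical inward rectifier of working ventricle, were dim. Kcnj2 averaged 3.13 ± 0.13 in Hccs het KO hearts and 3.02 ± 0.05 in control hearts, and Kcnj12 averaged 3.67 ± 0.18 in Hccs het KO hearts and 3.80 ± 0.24 in control hearts.

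Of 12 two-pore channel genes, which carry background potassium current, 2 had a mean above 6. Kcnk3, an acid-sensitive background channel, read 8.07, 8.28, 7.82, 8.02 and 7.98 in Hccs het KO hearts, against 8.32, 8.18, 8.46, 8.27 and 8.75 in control hearts. Of its Hccs het KO arrays, 4 lay below all controls and replicate 2 lay inside the control range. The change was -0.36 (95% interval -0.62 to -0.10) and did not pass the adjusted threshold (adjusted p = 0.128). Kcnk6 averaged 8.54 ± 0.18 in Hccs het KO hearts and 8.37 ± 0.12 in control hearts (SD, n = 5 each).

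Kcnn2 was the 1 of 8 calcium- or sodium-activated potassium channel genes with a mean above 6 and encodes a small-conductance channel of atrial muscle. It read 6.95, 6.97, 6.95, 7.15 and 6.72 in Hccs het KO hearts, against 7.0, 7.06, 7.43, 7.24 and 7.57 in control hearts. Only Hccs het KO replicate 4 reached into the control range. The change was -0.31 (95% interval -0.58 to -0.05) and did not pass the adjusted threshold (adjusted p = 0.182).

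Certain arrays lay at the ends of the range for several of the 22 genes. The same counts were not made over all genes, so they do not set channel genes apart from the rest of an array. Hccs het KO replicate 5 was the highest of the 10 arrays for 5 of the 22 genes (Kcna5, Kcnh2, Kcnj5, Kcnj3 and Kcnk6) and the lowest for 4, Hccs het KO replicate 3 was the lowest for 9, and control replicate 5 was the highest for 7. Shox2, a factor of the sinoatrial region, read 8.37, 8.80, 8.63, 9.92 and 10.79 in Hccs het KO hearts, against 8.95, 7.23, 7.55, 9.54 and 8.90 in control hearts, so Hccs het KO replicate 5 was also its highest array. Shox2 was 1 of 6 measured markers of sinoatrial and conduction tissue, and none of the others was highest in that array. Tbx3 was highest in Hccs het KO replicate 3 (6.59) and Gjc1 in Hccs het KO replicate 2 (11.72). Cacna1d was highest in control replicate 2 (5.53), and Isl1 and Cntn2 in control replicate 3 (9.12 and 3.27). The part of atrial or sinoatrial tissue in the channel values was not tested.

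No sodium or pacemaker channel gene analysed here had a mean above 6, and none passed the test. Hcn2, the pacemaker channel of working muscle, averaged 3.73 ± 0.06 in Hccs het KO hearts and 3.90 ± 0.10 in control hearts (SD, n = 5 each), a change of -0.16 that did not pass (limma adjusted p = 0.140). Hcn3 averaged 1.75 ± 0.04 in Hccs het KO hearts and 1.76 ± 0.03 in control hearts. Scn2b, a beta subunit that binds the sodium channel pore through a disulphide bond, read 6.38, 5.31, 6.43, 5.26 and 6.27 in Hccs het KO hearts, against 6.14, 5.16, 5.37, 6.66 and 4.99 in control hearts. Both genotypes held arrays near 5 and arrays above 6. Scn4b, another beta subunit, averaged 2.36 ± 0.06 in Hccs het KO hearts and 2.32 ± 0.06 in control hearts.

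Scn9a, Kcnmb2 and Scn3b had high values in 1 or 2 control arrays. Scn9a, a sodium channel of sensory and sympathetic neurons, read 3.11, 3.39, 3.18, 3.30 and 3.16 in Hccs het KO hearts, against 3.05, 2.99, 6.31, 3.07 and 3.10 in control hearts. Kcnmb2, a beta subunit of large-conductance channels, read 2.63, 2.16, 2.14, 2.60 and 2.11 in Hccs het KO hearts, against 2.16, 2.13, 5.32, 2.82 and 2.23 in control hearts, and a second Kcnmb2 probe set also stood apart in control replicate 3, at 5.04. In both genes 1 array, control replicate 3, stood above the other 9. Without it, the Scn9a change was 0.18 and the Kcnmb2 change was -0.00467, against -0.47 and -0.60 with it. With the 18S signal as a covariate, the changes were -2.29 for Scn9a and -2.27 for Kcnmb2, neither past the threshold (limma adjusted p = 0.0544 and 0.0604). The other 4 Scn9a probe sets stayed below 4 on every array.

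Scn3b, a sodium channel beta subunit of heart and neurons, had 5.06, 5.23, 4.96, 5.71 and 4.89 in Hccs het KO hearts, against 5.69, 6.74, 6.88, 5.61 and 4.32 in control hearts. Control replicates 2 and 3 were highest and control replicate 5 lowest, so the control arrays enclosed all Hccs het KO arrays, and the change of -0.68 had a 95% interval of -1.66 to 0.30 (limma adjusted p = 0.405). It was -0.42 without control replicate 3, -1.06 without control replicate 5 (limma adjusted p = 0.106) and -1.79 with the 18S signal as a covariate (limma adjusted p = 0.104). Control replicate 3 exceeded all other arrays by more than 0.5 in 3 of the 117 channel genes (Scn9a, Kcnmb2 and Cacna1h), or 2.56%, and in 0.792% of all genes. The part of neural tissue in these values was not tested. Prph, an intermediate filament of peripheral neurons, read 2.83, 2.93, 2.88, 2.89 and 2.89 in Hccs het KO hearts, against 3.46, 4.11, 7.12, 2.89 and 2.91 in control hearts.

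**Figure D4:**
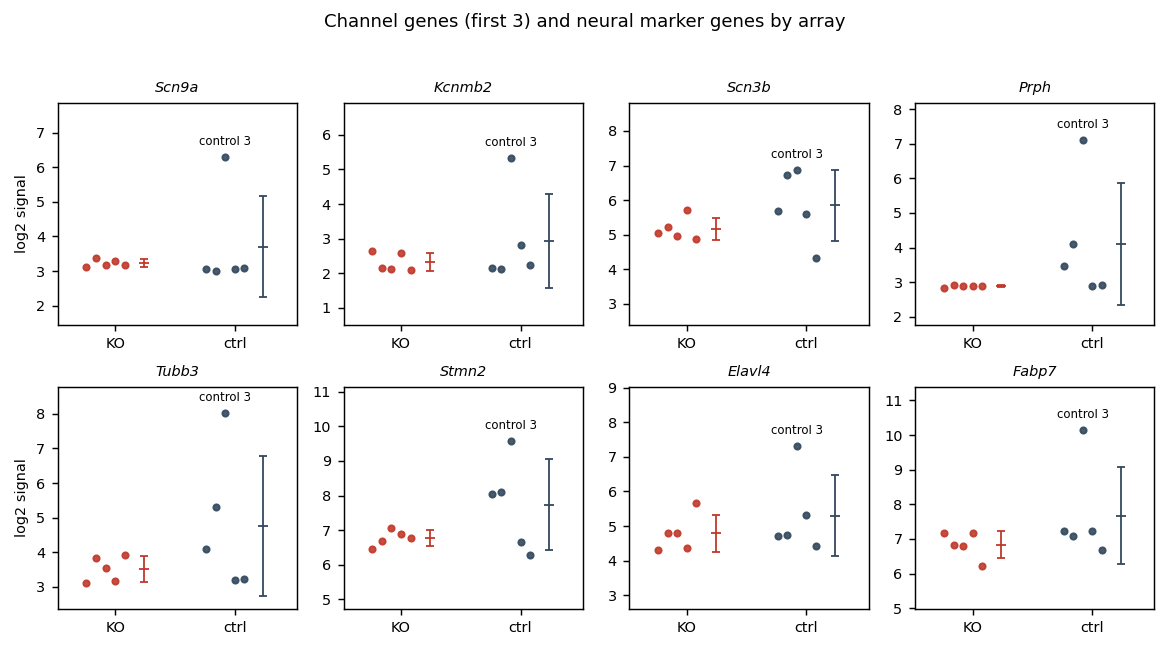
Log2 signal (y axis) of Scn9a, Kcnmb2 and Scn3b and of the neural and glial markers Prph, Tubb3, Stmn2, Elavl4 and Fabp7 in Hccs het KO (KO, left) and control (ctrl, right) hearts. Points are arrays and bars give mean ± SD over 5 arrays; control replicate 3, labelled, is the highest array in every panel.

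Among the other dim genes, no change passed the test, and the median change of all 95 was 0.0086, against 0.029 for all genes with a mean of 6 or below. The smallest unadjusted p-values belonged to Kcnc2 (change -0.36), Hcn2, Cacna1d, Kcna3 (0.10), Cacna1g and Scn2a (0.12), with limma adjusted p between 0.134 and 0.252.

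**Figure D5:**
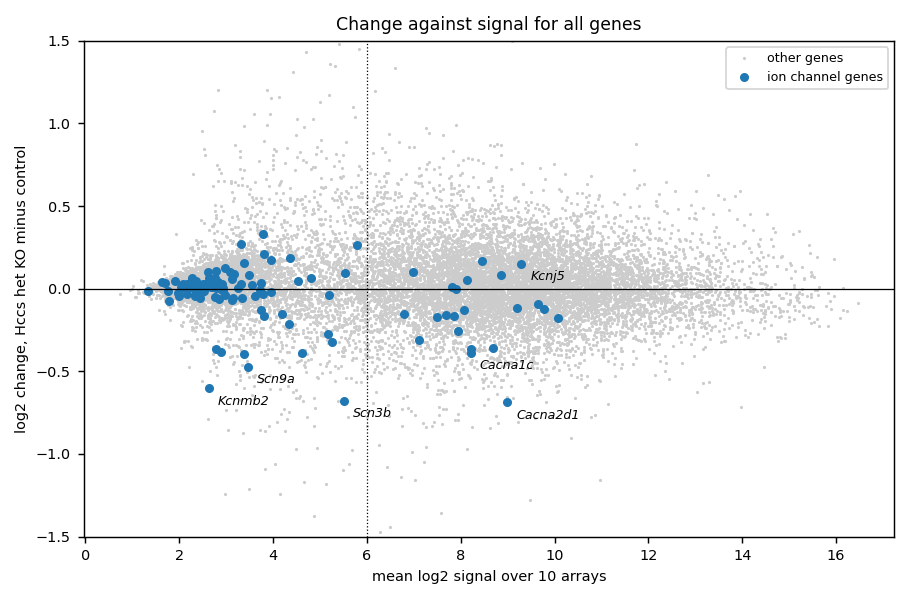
Log2 change (Hccs het KO minus control, y axis) against the mean log2 signal over 10 arrays (x axis) for 18193 genes in grey and the 117 channel genes in blue; the dotted line marks a mean of 6, and 15 other genes lie outside the plotted range. Cacna2d1 lies lowest among the 22 channel genes right of the line, and most of the 95 to its left lie near 0.

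Genes that work beside the channels were counted from lists. Each count stands against the 1.74% of genes with a mean above 6 that fell and the 4.53% that changed in either direction. For all genes these shares were 0.945% and 2.58%, and most lists held some dim genes. Means above 6 were found for 17 of 18 anchoring, 11 of 14 beta-adrenergic and muscarinic and 18 of 18 calcium handling genes. The same held for 7 of 11 pumps and exchangers, 17 of 20 transcription factors, 5 of 8 connexins and 8 of 20 other channels. Of 18 genes for anchoring and trafficking of channels, 2 fell and none rose, with a median change of -0.26 and 14 negative. Nedd4l, a ubiquitin ligase that removes channels from the membrane, averaged 9.46 ± 0.11 in Hccs het KO hearts and 9.84 ± 0.07 in control hearts (SD, n = 5 each; limma adjusted p = 0.0164). Fgf13, an intracellular partner of sodium channels, averaged 11.10 ± 0.09 in Hccs het KO hearts and 11.45 ± 0.11 in control hearts (limma adjusted p = 0.0289), and Pkp2, of the desmosome, had a change of -0.07 that did not pass. Of 14 genes of beta-adrenergic and muscarinic control 2 fell and none rose (median -0.12): the phosphodiesterase Pde4d averaged 8.64 ± 0.08 in Hccs het KO hearts and 9.11 ± 0.16 in control hearts (limma adjusted p = 0.0225), and the adenylyl cyclase Adcy5 averaged 7.83 ± 0.13 in Hccs het KO hearts and 8.20 ± 0.13 in control hearts (limma adjusted p = 0.0442). Gnas, the stimulatory G protein, did not pass (change -0.11).

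Of 18 sarcoplasmic reticulum calcium handling genes 1 fell and none rose, and 13 were negative with a median of -0.17. That gene was Atp2a2, the calcium pump of the reticulum, at 14.65 ± 0.08 in Hccs het KO hearts and 14.94 ± 0.07 in control hearts (SD, n = 5 each; limma adjusted p = 0.0246); its inhibitor Pln had a change of -0.11 that did not pass. Of 11 sodium-potassium pump and exchanger genes 1 fell and none rose (median -0.04), the pump regulator Fxyd1, at 12.03 ± 0.15 in Hccs het KO hearts and 12.47 ± 0.11 in control hearts (limma adjusted p = 0.0260), while the pump subunit Atp1b1 had a change of -0.0015. Of 20 transcription factors of conduction and channel genes 2 fell and none rose (median -0.12), Nkx2-5, with the limit on the driver given above, and Hopx, a homeodomain protein without DNA binding, the second at 12.50 ± 0.22 in Hccs het KO hearts and 12.95 ± 0.08 in control hearts (limma adjusted p = 0.0450); Id2, at 13.59 ± 0.21 in Hccs het KO hearts and 13.14 ± 0.12 in control hearts, did not pass (limma adjusted p = 0.0502).

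None of 8 connexins passed (median 0.026), although Gja1, the main ventricular connexin, lay higher in all 5 Hccs het KO arrays, at 14.75 ± 0.15 against 14.30 ± 0.20 in control hearts (SD, n = 5 each; limma adjusted p = 0.0543). None of 20 other cation and chloride channels passed (median -0.02), among them Trpm7 with a change of 0.22. Over all 18193 genes the median change was 0.025. Without control replicate 3 these 7 lists held 1 called gene for anchoring, 1 for transcription factors and 0 for each of the other 5. That fit called 111 of all 18193 genes, against 469 with every array, and fits that left out 1 array called 105 to 1042.

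Of the cell type lists, 2 of 9 cardiomyocyte markers fell and none rose, against 1.74% of genes with a mean above 6 that fell: Myh7 averaged 14.23 ± 0.16 in Hccs het KO hearts and 14.71 ± 0.11 in control hearts (SD, n = 5 each; limma adjusted p = 0.0250), and Myl2 averaged 15.70 ± 0.08 in Hccs het KO hearts and 15.93 ± 0.04 in control hearts (limma adjusted p = 0.0291). Of 7 fibroblast and epicardium markers 1 rose, Tcf21, at 12.06 ± 0.08 in Hccs het KO hearts and 11.45 ± 0.28 in control hearts (limma adjusted p = 0.0376). No marker passed among 11 of peripheral neurons, 4 of Schwann and neural crest glia, 7 of endothelium, 6 of smooth muscle and pericytes, 6 of macrophages, 5 of erythroid cells and 6 of the sinoatrial and conduction tissue.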

How the data were processed

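The deposited table holds 1 log2 signal per probe set and array. The authors summarised the arrays with RMA and Partek, per the submitters' processing notes, with versions and background option not given in the sources used here. Per the labels' protocols, biotinylated cRNA was made from total RNA purified on spin columns. Because RMA brings arrays to a similar distribution (here with array medians of 3.65 to 3.76), changes in total RNA per heart are not visible. No detection calls were given, so a dim channel gene cannot be called present or absent. The number of arrays limits the precision.

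Of 45101 probe sets, 34945 carried 1 gene symbol in the platform annotation; 932 with several symbols, 9160 with none and 64 array controls stayed out. The brightest probe set by 10-array mean stood for a gene, giving 18193 genes; all 117 channel symbols equalled the RefSeq symbol of their Entrez number. Beyond the division at a mean of 6, levels of different genes are not compared, since probes differ in brightness. Genotype was fitted with limma 3.58.1 (lmFit, eBayes, two-sided, R 4.3.3) without a filter on low values, adjusted by Benjamini-Hochberg over all genes with a threshold of 0.05, after a test on simulated data. Hccs was also compared by an exact permutation test.

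The channel genes, gene lists and alternatives were chosen with earlier results of these data known. Described are all genes past the threshold, the channel genes with a mean above 6 (by rule the 3 brightest of each role, the others added after their values were seen), 26 genes of the main cardiac currents (22 measured), the dim genes with the smallest p, and of each list the called genes and the brightest uncalled one; Scn9a, Scn3b, Kcnmb2, Scn2b, Hcn3, Id2 and Shox2, the second probe sets and the neural markers were likewise added. The alternatives were a replicate block, other normalizations, filters, probe set rules, variance settings, covariates and thresholds, and arrays left out. Plots were made in matplotlib 3.10.9 under Python 3.11.15.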

Additional observations from a re-analysis of the deposited data

Results flagged for a closer look

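Among 74 groups of 5 arrays examined for a single array far from the other 4, 7 met the criterion. Chance flags about 1 in 20 groups. The genes examined included Scn9a, Kcnmb2 and Scn3b, added after their values were seen, so the count of 7 cannot be set against that rate. In Hccs het KO hearts, replicate 5 stood high for Kcna5 (9.33, the others 8.74 to 8.82) and for Kcnmb4 (7.98, the others 7.44 to 7.57). In control hearts, replicate 3 stood high for Scn9a (6.31, the others 2.99 to 3.10) and Kcnmb2 (5.32, the others 2.13 to 2.82). Control replicate 1 was high for Kcnk6 (8.58, the others 8.28 to 8.36). Control replicate 5 was low for Cacna1g (4.40, the others 4.88 to 4.99), and control replicate 2 was low for Scn4b (2.21, the others 2.33 to 2.36).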

How the results depend on the processing

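The call of Cacna2d1, and with it the count of 1 called channel gene, held under 9 of 25 alternatives. The count was 0 with the replicate number as a block, after quantile normalization, with arrays centred on their median, with the mean of the gene's probe sets, with the most variable probe set, over every probe set, at a threshold of 0.01 and without replicate 3 of either genotype, and 0 to 1 with 1 array left out. Same-numbered Hccs het KO and control arrays did not deviate together (correlations -0.061 to 0.0997 across genes). These correlations cannot show whether same-numbered pools were collected or processed together, so a pairing by number is not excluded. With the replicate block Cacna2d1 had a limma adjusted p of 0.130, and 36 genes passed in all, against 469 without it. The most variable probe set reversed Cacna2d1 (0.10). The median change of the 22 channel genes stayed between -0.18 and -0.09 under 22 alternatives. The Hccs change was -0.55 with the block (limma adjusted p = 0.0735), -0.50 with the 18S covariate (0.109), -0.55 at a threshold of 0.01 and -0.59 without both replicates 3 (0.0714), all no longer past the threshold, and -0.60 to -0.48 with 1 array left out, where the call was also lost without Hccs het KO replicate 2 or 4 or control replicate 2 or 3 (limma adjusted p between 0.0511 and 0.0563). Uncalled genes that turned sign were Kcnj3 (-0.0222 after quantile normalization, -0.0257 after centring, -0.0114 with array weights, -0.078 without both replicates 3, -0.085 to 0.092 with 1 array left out), Cacng6 (-0.16 with the mean and -0.42 with the most variable probe set), Cacnb2 (0.0126) and Kcnd2 (0.13) with the most variable probe set, Kcnq5 (0.00017 with array weights, 0.0226 with the 18S covariate, 0.0746 with the span trend removed, -0.0591 to 0.0725 with 1 array left out), and with the 18S covariate Kcnj11 (0.0456), Kcne3 (-0.37) and Kcnj8 (0.24). Without both replicates 3, Scn9a was at 0.19 and Kcnmb2 at 0.0423. With 1 array left out, Cacna2d2 ran between -0.23 and 0.0591, Kcna5 between -0.0252 and 0.15, Kcne3 between -0.0485 and 0.18 and Scn9a between -0.65 and 0.18. The causes were not tested. The total of 469 called genes ranged between 14 at a threshold of 0.01 and 1160 at 0.1, with 945 under array weights, 759 and 735 with only the brighter genes tested, 296 with the 18S covariate, 30 without both replicates 3 and 105 to 1042 with 1 array left out. The called genes of the 7 partner lists ranged between 0 and 4 a list.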
